A study of Mus musculus with 4 samples.

Results

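The heat shock chaperones described here are 10 mouse genes, Hspa1a, Hspa1b, Hspa8, Hsph1, Dnaja1, Dnajb1, Hsp90aa1, Hspb1, Hspd1 and Hspe1, taken by symbol from the 52636 genes of the deposited tables. Each symbol matched 1 gene. Single cells of kidney glomeruli, the capillary tufts that filter blood, were profiled in 2 libraries of young and 2 libraries of aged mice, all labelled untreated. Mice were perfused with magnetic beads, their kidneys were minced and digested, and glomeruli were collected with a magnet and digested again with trypsin, dispase and collagenase at body temperature. The age in months, sex, strain and number of mice per library are not given in the sources used here, nor is the digestion time of each library, so p-values measure the spread between these preparations, which may be technical.

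Heat shock chaperones hold unfolded proteins, help them fold and pull apart aggregates, and many of them are switched on by heat shock factor 1 when misfolded protein builds up. HSP70 proteins work in cycles that J-domain proteins start and exchange factors such as Hsph1 reset, HSP90 finishes folding of kinases and receptors, small heat shock proteins hold clients without using ATP, and Hspd1 and Hspe1 form the folding chamber of mitochondria. Heat, warm enzymes and the loss of contact with neighbouring cells can start the same response within the time of a tissue digestion, so these genes are often read as a sign of sample handling in single-cell data.

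The sequences upstream of the genes are shown because most members were high in the same library, and because heat shock factors bind runs of GAA and its complement TTC. RefSeq promoters on GRCm38.p6 (250 bases before and 50 after a start) were found for 8 of the 10 members. The search used GAANNTTC and TTCNNGAA, each of which reads the same on both strands, and both 13-letter forms in which they overlap, alternating units of GAA and TTC with NN between them, which contain the 8-letter forms and are each other's complement. These 8 genes have 13 promoter entries, since some have several starts. One of the 8-letter forms stood in 8 of the 13, from 7 genes, against 15.1% of 32851 mouse promoters of the same length. A 13-letter form stood in 4 of the 13 (Hspd1, Hspe1 and 2 of Hsph1), against 0.603%, and the entries of Hspd1 and Hspe1 share the same site. Capitals below mark these letters. The 2 HSP70 genes lie in tandem on chromosome 17 with 9951 bases between them, and 247 of the 250 bases upstream of them are the same (chr17:34972157-34972406 and chr17:34959239-34959488, minus strand). Hspd1 and Hspe1 start head to head on chromosome 1, and the 30 bases shown lie between the Hspe1 start and 1 of the 2 RefSeq starts of Hspd1, and inside Hspd1 as read from the other (chr1:55088053-55088082, plus strand). The bases upstream of Dnajb1 (chr8:83607925-83608174, plus strand) held none of the 4 forms. Dnajb1 is shown because it is the gene with the smallest p below. It lies at chr8:83608193-83612653 on the plus strand (GENCODE vM21), Hspa1a at chr17:34969190-34972156 and Hspa1b at chr17:34956436-34959238 on the minus strand, Hspd1 at chr1:55077835-55088243 on the minus and Hspe1 at chr1:55088132-55091307 on the plus strand.
Hspa1a: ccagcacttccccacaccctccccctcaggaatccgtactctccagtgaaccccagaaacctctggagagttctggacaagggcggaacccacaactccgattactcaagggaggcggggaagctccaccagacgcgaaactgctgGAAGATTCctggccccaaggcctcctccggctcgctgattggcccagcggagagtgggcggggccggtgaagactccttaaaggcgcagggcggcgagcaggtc
Hspa1b: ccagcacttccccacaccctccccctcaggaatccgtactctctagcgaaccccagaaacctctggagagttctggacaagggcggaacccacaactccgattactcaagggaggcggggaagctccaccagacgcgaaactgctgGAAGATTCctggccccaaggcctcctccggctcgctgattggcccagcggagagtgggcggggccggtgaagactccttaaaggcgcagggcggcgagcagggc
Hspd1-Hspe1: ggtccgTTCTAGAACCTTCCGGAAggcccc
Dnajb1: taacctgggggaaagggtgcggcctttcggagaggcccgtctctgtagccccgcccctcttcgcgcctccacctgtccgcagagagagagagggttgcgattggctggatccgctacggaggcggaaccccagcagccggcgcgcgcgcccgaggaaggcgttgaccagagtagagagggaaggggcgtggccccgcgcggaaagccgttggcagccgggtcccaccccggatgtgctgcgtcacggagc

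The libraries differed in depth and in purity. They held between 5532 and 10621 barcodes and between 18457791 and 42046542 UMIs, counts of unique molecular identifiers. Young replicate 2 stood apart: its kept cells had a median of 1258 UMIs, against 2715 to 3730 in the other libraries, and 56.9% of them carried markers of more than 1 cell type and were set aside, against 1.87% to 2.57%. Of 33206 distinct barcodes, 116 occurred in more than 1 library. Classes were named from marker genes, so each name means cells that resemble that type. All 10 podocyte, all 9 mesangial and all 8 parietal epithelial markers were highest in the class of that name, as were 9 of the 10 endothelial markers. The UMIs of a class were summed per library, and levels below are CPM, the UMIs scaled to a common total, after TMM scaling unless stated otherwise.

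In podocytes, the cells that carry the slit diaphragm of the filter, 8 of the 10 chaperones were higher in the aged libraries (edgeR, Benjamini-Hochberg adjusted p under 0.05), against 3.85% of the 10863 genes tested that were called higher, 1.95% called lower and 5.8% called in either direction. For 8 members the groups did not overlap and the aged one was higher, against 23.5% of genes. The median log2 fold change of the 10 was 1.02, against 0.00 over all genes. Aged replicate 2 had the highest level of all 10 members. Without that library the median was 0.41, while without young replicate 2, the mixed library, it was 0.96. Markers of other classes stood at no more than 4.24% of their own level in podocytes. In sums over cells such as these, more expressing cells and more RNA per cell cannot be told apart. The spread of Dnajb1 and Hspa1a among single podocytes is described further below. The young cells came mostly from 1 cluster (1487 and 394 cells of cluster 2, 262 and 201 of cluster 6) and the aged cells from the other (298 and 185 of cluster 2, 682 and 470 of cluster 6).

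Dnajb1, a J-domain protein that delivers clients to HSP70 and is itself a target of heat shock factor 1, had the smallest p of the 10. Its level in podocytes was 226 and 216 CPM in the young libraries and 502 and 660.3 CPM in the aged ones. Both aged libraries thus lay above both young ones, and here aged replicate 1 also stood clear of the young libraries. The log2 fold change was 1.39 (SE 0.14, adjusted p = 1.07e-07, edgeR), and with 1 library left out it ranged from 1.19 to 1.58 with a call each time. When cells with markers of several types were kept it was 1.16 and was not called (adjusted p = 0.0995).

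The other J-domain member, Dnaja1, which pairs with Hspa8 in the cytosol, was at 807 and 870.5 CPM in young and 1108 and 1817 CPM in aged podocytes. The aged libraries were higher, with the larger step in aged replicate 2 (log2 0.80, SE 0.17, adjusted p = 0.00293, edgeR). Hspa1a, the inducible HSP70, measured 2133 and 1897 CPM in young against 2669.8 and 5669 CPM in aged podocytes. The log2 fold change was 1.05 (SE 0.21, adjusted p = 0.0017, edgeR) and 0.41 without aged replicate 2. Its twin Hspa1b, which encodes nearly the same protein, was at 606 and 825 CPM in young and 943 and 1975 CPM in aged libraries (log2 1.03, SE 0.21). The 2 genes moved alike, and with their UMIs added the log2 fold change was 1.04 (adjusted p = 0.00176, edgeR). The gene Gm20481 overlaps Hspa1a on the other strand, and whether reads were counted by strand is not given in the sources used here.

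Hsph1, the HSP110 that swaps nucleotide on HSP70, had 211 and 208 CPM in young and 294 and 565 CPM in aged podocytes (log2 1.04, SE 0.18). Hspb1, a small heat shock protein that binds actin filaments, was at 1055 and 768 CPM in young and 1061 and 3216 CPM in aged podocytes. Aged replicate 1 was level with young replicate 1, and the log2 fold change of 1.23 (SE 0.27, adjusted p = 0.00343, edgeR) was 0.22 without aged replicate 2. The mitochondrial pair behaved like Hsph1: Hspd1 measured 237 and 223 CPM in young and 326 and 597 CPM in aged podocytes. Hspe1, its lid, was at 577 and 514 CPM in young and 739 and 1411 CPM in aged podocytes. Their log2 fold changes were 1.00 (SE 0.18) and 0.98 (SE 0.19). Reads from the 112 bases in which these 2 genes overlap on opposite strands cannot be told apart without strand.

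The remaining members did not pass the test in podocytes. Hspa8, the constitutive HSP70, was at 1906 and 1323 CPM in young and 1739.8 and 2999.5 CPM in aged libraries (log2 0.55, SE 0.19, adjusted p = 0.097, edgeR). The groups overlapped, since aged replicate 1 was below young replicate 1. Hsp90aa1, the inducible cytosolic HSP90, had 2125 and 2209 CPM in young and 2003 and 2719 CPM in aged podocytes (log2 0.12, SE 0.16, adjusted p = 0.787, edgeR). DESeq2 in place of edgeR called Dnajb1 alone among the 10, against 267 of 10863 genes. A naming of cells one by one also called Dnajb1 alone, against 298 of 10954 genes. No member was called when cells with markers of several types were kept, where 41 of 11090 genes were called in all.

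**Figure D1:**
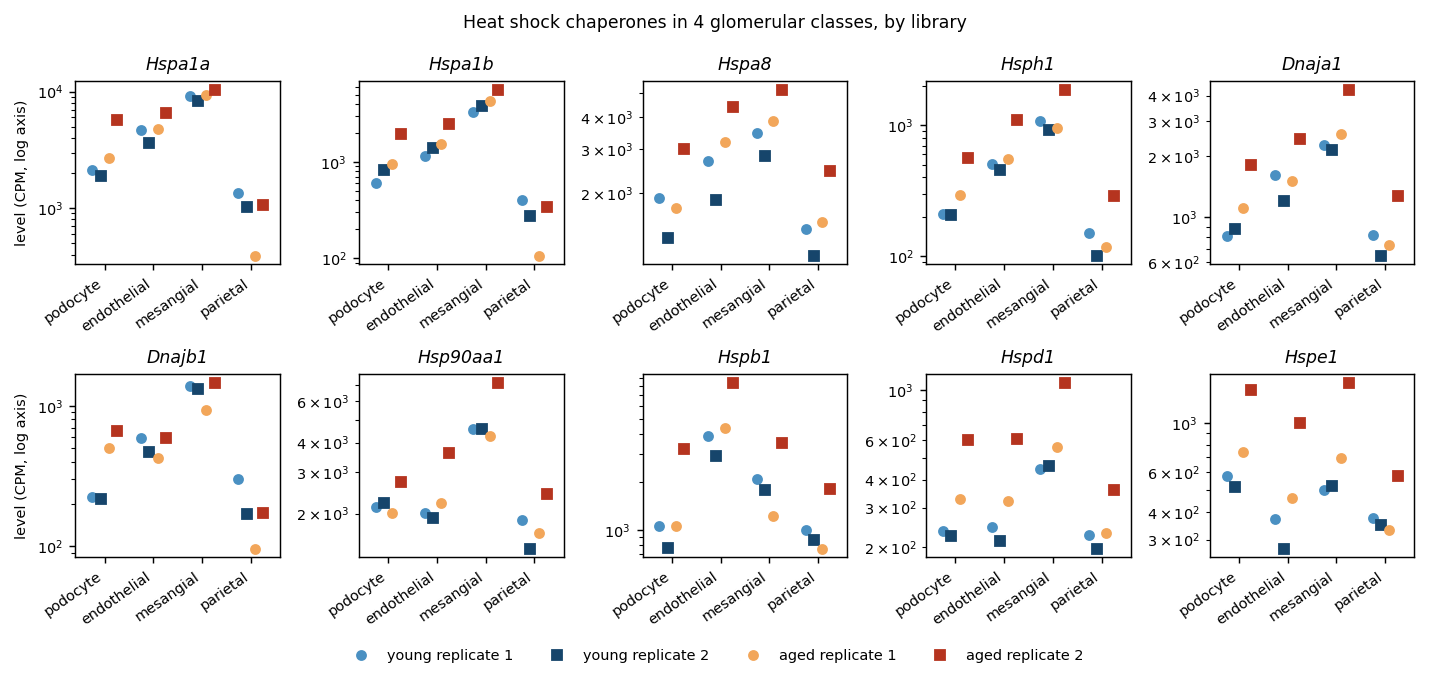
Level of each member (CPM after TMM, log axis) in the podocyte, endothelial, mesangial and parietal epithelial classes, with 1 point per library. Aged replicate 2 (dark red squares) was highest for all 10 members in podocytes and mesangial cells, and Dnajb1 is the member for which aged replicate 1 in podocytes (502 CPM) stood nearest to it (660.3 CPM).

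Within the podocyte clusters the members took different patterns. In cluster 6, Dnajb1 was at 355 and 283 CPM in young and 569 and 709 CPM in aged cells (CPM of the cluster's total, no TMM), and the test on this cluster alone called it (log2 1.06, adjusted p = 8.96e-05, edgeR), with 7 of the 10 members called, against 433 of 9871 genes. In cluster 2, Dnajb1 was at 186 and 173 CPM in young and 165 and 231 CPM in aged cells. Those groups overlapped. In cluster 2, aged replicate 1 was below both young libraries for 9 of the 10 members (not Hspa1b), while aged replicate 2 was above both for 9. Hsp90aa1 was the exception to the latter, at 1979 and 2068 CPM in young and 1131 and 1643 CPM in aged cells. The 10 members together took 0.909% and 0.823% of UMIs in young and 0.619% and 1.40% in aged cells of cluster 2. In cluster 6 they took 1.23% and 1.08% in young and 1.24% and 2.21% in aged cells, so aged replicate 1 was level with young replicate 1. The part of the cluster mix in the values of the whole class was not tested.

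**Figure D2:**
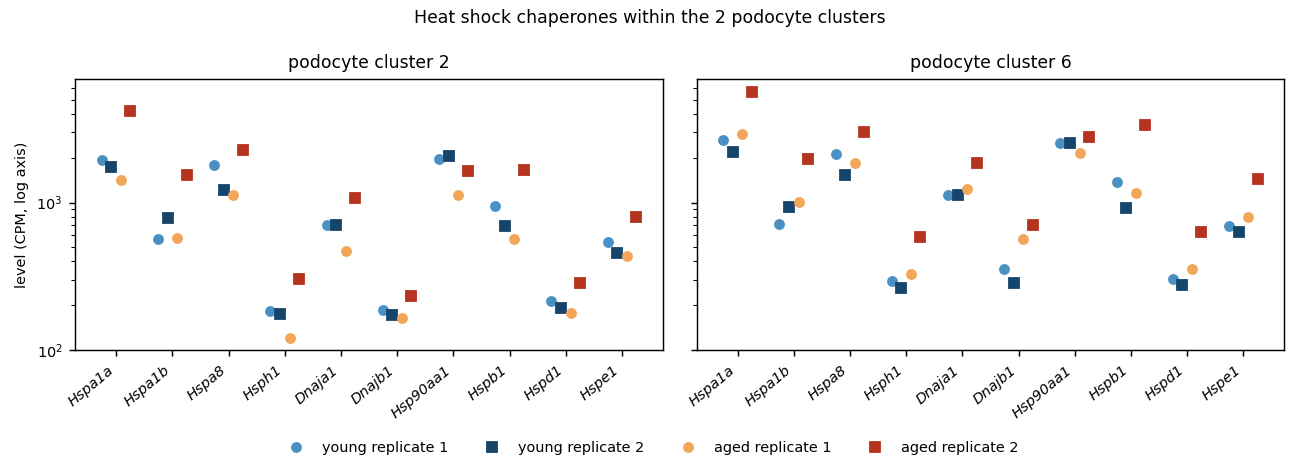
Level of the 10 members (CPM of the cluster's total, log axis) in podocyte clusters 2 and 6, with 1 point per library. Dnajb1 of the aged libraries stood above the young ones in cluster 6 (569 and 709 against 355 and 283 CPM) and overlapped them in cluster 2.

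In glomerular endothelial cells, which line the filter, 5 of the 10 members were higher in the aged libraries, against 4.03% of 13125 genes called higher, 2.02% called lower and 6.05% called in all. The median log2 fold change of the 10 was 0.70, against -0.01 over all genes. The mitochondrial pair led: Hspe1 was at 369 and 273 CPM in young and 461 and 1003 CPM in aged cells (log2 1.19, SE 0.25, adjusted p = 0.00452, edgeR). Hspd1 measured 245 and 212 CPM in young and 322 and 605 CPM in aged cells (log2 1.02, SE 0.21). Hspb1, with its highest level of any class in these cells, was at 3908 and 2895 CPM in young and 4332 and 8402 CPM in aged libraries (log2 0.90, SE 0.25, adjusted p = 0.0363, edgeR). In all 3 genes both aged libraries were above both young ones, with aged replicate 2 far above the rest.

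Hsph1 (log2 0.78, SE 0.23) and Hspa8 (log2 0.74, SE 0.21) were also called in endothelial cells, with adjusted p of 0.0424 and 0.0444 (edgeR). Hspa8 was at 2689.6 and 1872 CPM in young and 3202 and 4400.1 CPM in aged libraries, so its young libraries differed from each other by more than aged replicate 1 did from the higher of them. Hspa1a, at 4690.2 and 3630.1 CPM in young and 4782 and 6547 CPM in aged cells, was not called (log2 0.45, adjusted p = 0.268, edgeR), nor were Hspa1b (0.67), Hsp90aa1 (0.57) and Dnaja1 (0.49). Dnajb1 measured 593 and 469 CPM in young and 425 and 592 CPM in aged cells. Its groups overlapped fully (log2 -0.06, SE 0.18, adjusted p = 0.906, edgeR), in contrast to podocytes. No member was called in endothelial cells without aged replicate 2, without young replicate 1, without young replicate 2, with cells of several types kept, or with no filter on low counts. Over all genes these settings called 740 of 12497, 162 of 14214, 139 of 14206, 517 of 13278 and 0 of 23313, so calls were few or absent in several of them. DESeq2 called Hspa8 and Hspa1b, against 503 of 13125 genes, and neither Hspd1 (adjusted p = 0.290) nor Hspe1 (adjusted p = 0.386).

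The endothelial class also held different clusters in the age groups, with cluster 0 mostly aged (187 and 103 young against 2366 and 1219 aged cells). This cluster was led by Sele, Il6 and Selp, genes of activated endothelium. In cluster 1, which was more even (1184, 609, 608 and 737 cells), 6 members were called, against 241 of 9498 genes. There Hspa1a reached 5370.0 and 4498 CPM in young and 7658 and 8321 CPM in aged cells (CPM of the cluster's total), and it was called with a log2 fold change of 0.78.

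In mesangial cells, the contractile cells between the capillaries, the mean levels of 8 members were higher than in any other class. The call was reached by 2 members, both mitochondrial, against 7.11% of 11796 genes called higher (6.47% lower, 13.6% in all), and the median of the 10 was 0.49, against -0.01 over all genes. Hspe1 was at 499 and 523 CPM in young and 694 and 1517 CPM in aged cells (log2 1.12, SE 0.29, adjusted p = 0.0272, edgeR). Hspd1 was at 445 and 457 CPM in young and 558 and 1078 CPM in aged cells (log2 0.86, SE 0.25, adjusted p = 0.0473, edgeR). Aged replicate 1 lay close above the young libraries and aged replicate 2 well above them.

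Hspa1a measured 9179 and 8296 CPM in young and 9275 and 10401 CPM in aged mesangial cells (log2 0.17, SE 0.20, adjusted p = 0.618, edgeR), and its difference was -0.017 on totals without TMM. Dnajb1 was at 1385 and 1310.4 CPM in young and 928 and 1465 CPM in aged cells, and the groups overlapped (log2 -0.17, SE 0.21). Hspb1 was at 2074 and 1790.0 CPM in young and 1228 and 3498 CPM in aged cells. The aged libraries thus stood on both sides of the young ones, and the direction of Hspb1 turned with the library that was left out: -0.64 without aged replicate 2 (adjusted p = 0.000175, edgeR) and 0.85 without aged replicate 1 (adjusted p = 5.57e-08, edgeR). Hspe1 was still called without aged replicate 2 (log2 0.46, adjusted p = 0.00612, edgeR), whereas Hspd1 was not, and neither was called without young replicate 1, without young replicate 2, on totals without TMM, or by DESeq2, which called Dnaja1 alone. Totals without TMM lowered the median of all genes by 0.20 in mesangial and by 0.13 in endothelial cells, and turned 839 higher and 763 lower genes of the mesangial class into 509 and 1324, and 529 and 265 of the endothelial class into 398 and 520.

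The mesangial comparison ran largely between clusters, since cluster 13 held 393 and 255 of the young cells and cluster 9 held 659 and 532 of the aged ones. The summed endothelial markers in the mesangial class stood at 40.7% and 37.3% of their level in endothelial cells in the young libraries and at 21.7% and 22.9% in the aged ones, with none of the 10 markers at 0, and their part in the result was not tested. On cluster 13 alone, with 35 and 22 aged cells, 4 members were called, against 281 of 8982 genes.

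Parietal epithelial cells, which line the capsule around the tuft, were few, with 39 and 90 young and 51 and 64 aged cells, and no member was called, against 5.24% of 4850 genes called in either direction. At an unadjusted p under 0.05 (edgeR), 6 members passed, against 931 of 4850 genes. Of these members, Hspa1a and Dnajb1 had lower and Hspa8, Hsph1, Dnaja1 and Hspd1 higher aged levels. DESeq2 called 0 members, against 68 of 4850 genes. Dnajb1 was at 299 and 169.7 CPM in young and 96.2 and 171 CPM in aged cells (log2 -0.70, SE 0.29, adjusted p = 0.195, edgeR). Hspa1a measured 1339 and 1027 CPM in young and 392 and 1066 CPM in aged cells (log2 -0.66, SE 0.29, adjusted p = 0.219, edgeR). These rest on 27 to 85 UMIs of Dnajb1 and 110 to 529 UMIs of Hspa1a per library. Aged replicate 1 was the low library for both. Leaving out aged replicate 2 put Hspa1a at -1.56, Hspa1b at -1.62 and Dnajb1 at -1.22 on the log2 scale. The median log2 fold change of the 10 members, 0.42 with all libraries, then fell to -0.069. Dropping aged replicate 1 instead raised that median to 0.75. It moved to 0.58 if young replicate 1 was dropped and to 0.31 if young replicate 2 was. In this class the summed smooth muscle and renin markers stood at 7.61% and 8.41% of their own class's level in young and 17.2% and 23.99% in aged libraries, with 4 of 8 at 0 in each library. The podocyte markers stood at 7.70% and 10.97% in young and 3.15% and 4.19% in aged libraries, with 0 of 10 at 0. Their part in these values and in the class differences below was not tested.

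**Figure D3:**
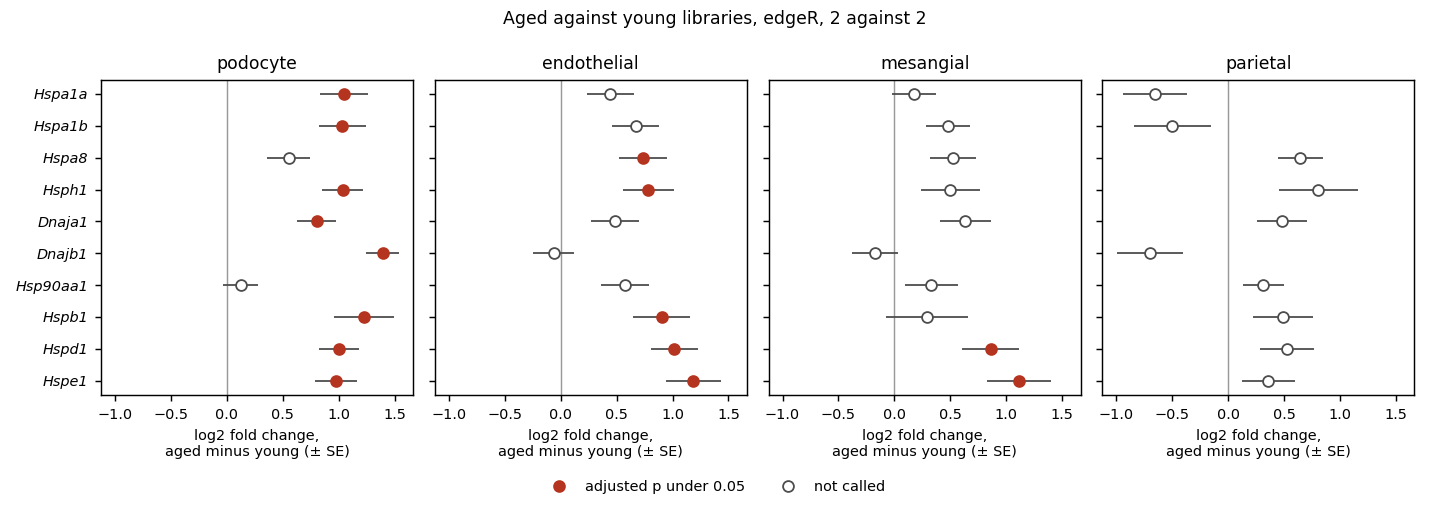
Log2 fold change of aged against young libraries with its standard error for each member in 4 glomerular classes (edgeR, 2 libraries a group), with filled points for an adjusted p under 0.05. Dnajb1 is at 1.39 in podocytes and at -0.06, -0.17 and -0.70 in the other classes, while Hspd1 and Hspe1 are above 0 in all 4.

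The difference between classes was itself tested, with the library as a block, in 6 pairings of the glomerular classes. The podocyte against endothelial contrast called 2.89% of 14109 genes, and among the members Dnajb1 alone: its age difference was smaller in endothelial cells by 1.45 log2 units (difference -1.45, SE 0.16, adjusted p = 5.33e-08, edgeR). Against mesangial cells, where 7.39% of genes were called, the podocyte difference was larger for Dnajb1 (-1.60, SE 0.16), Hspb1 (-0.94, SE 0.17), Hspa1a (-0.78, SE 0.22) and Hsph1 (-0.55, SE 0.15), each as mesangial minus podocyte. Against parietal cells, where 1.72% were called, it was larger for Dnajb1 (-2.05, SE 0.27), Hspa1a (-1.61, SE 0.25) and Hspa1b (-1.45, SE 0.29). Dnajb1 therefore differed between podocytes and each of the other classes, and all 3 of its calls were kept with any 1 library left out. Hspb1 (mesangial) and Hspa1a (parietal) also kept their calls against podocytes in 4 of 4 such fits. Hspa1b (parietal) lost its call without young replicate 1 (-0.99, adjusted p = 0.284, edgeR). Hsph1 lost its call without young replicate 1 and without aged replicate 1, at -0.45 and -0.51. Hspa1a in mesangial cells was called in 1 of 4, at -1.23 without aged replicate 1, and was -0.33 without aged replicate 2.

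Between endothelial and mesangial cells, Hspb1 alone was called (mesangial minus endothelial -0.77, SE 0.17, adjusted p = 0.00239, edgeR), against 7.19% of genes. Between endothelial and parietal cells, with 1.15% of genes called, Hspa1a (-1.10, SE 0.25) and Hspa1b (-1.14, SE 0.29) were called. With 1 library left out, Hspb1 ranged from -1.04 to -0.48 and kept its call without young replicate 1 and without aged replicate 2. Hspa1a ranged from -1.71 to -0.69 and kept it without aged replicate 2 only, and Hspa1b ranged from -1.83 to -0.76 and kept it without young replicate 2 and without aged replicate 2. No member was called between mesangial and parietal cells at an adjusted p under 0.05 in edgeR (2.02% of genes). At an unadjusted p under 0.05 (edgeR) 3 members passed, a threshold for which the share of all genes was not counted. DESeq2 was not run on this test. Hspd1, Hspa8, Dnaja1, Hspe1 and Hsp90aa1 were called in none of the 6 pairs. That does not show equal change: for Hspd1 the endothelial minus podocyte difference was 0.02 with an SE of 0.15.

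The 2 aged libraries differed from each other in the members by more than most genes did. In podocytes the log2 difference of aged replicate 2 from aged replicate 1 was above 0 for all 10 members, with a median of 0.90 and a range of 0.40 to 1.60, while 90% of all genes lay between -0.43 and 0.48. In endothelial cells the median was 0.70 and in mesangial cells 0.74, again with all 10 members above 0. The same held in parietal (0.82), monocyte and dendritic (0.86) and B cells (1.63), for 10 of 10 members each. The B cell cluster also carried endothelial markers, whose part in its value was not tested. In smooth muscle and renin cells it held for 9 of 10, and in T and NK cells for 4 of 8. Aged replicate 1, set against the mean of the young libraries, had medians of 0.41 in podocytes, 0.25 in endothelial cells, 0.16 in mesangial cells and -0.10 in parietal cells.

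**Figure D4:**
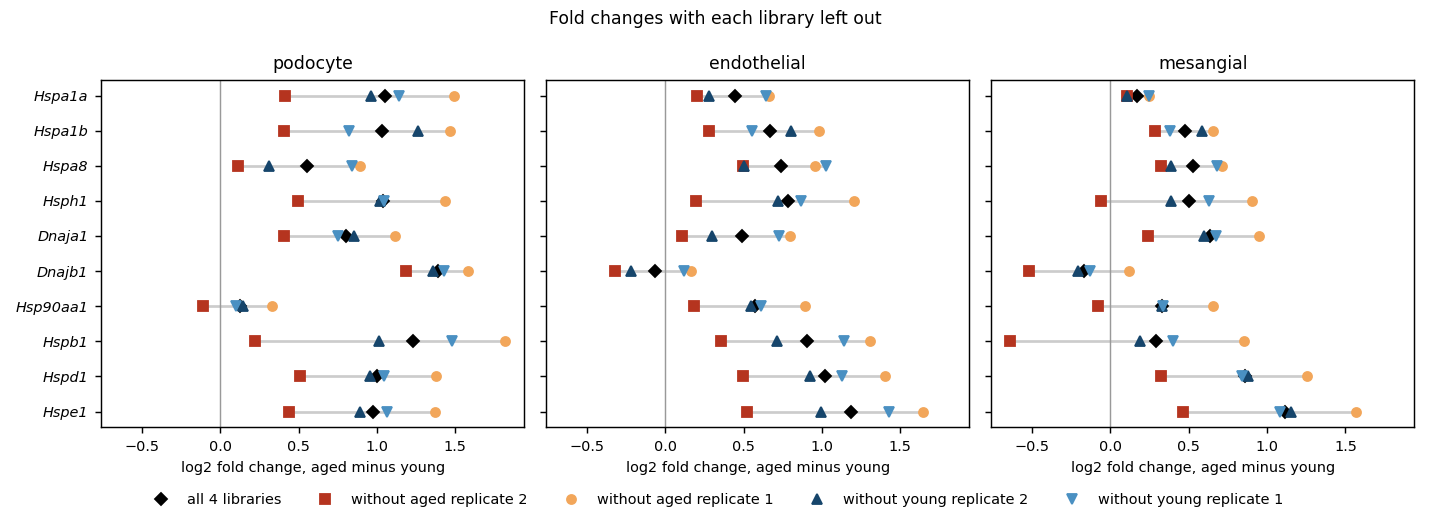
Log2 fold change of each member in podocytes, endothelial and mesangial cells with all 4 libraries (black diamonds) and with each library left out in turn. The values without aged replicate 2 (dark red squares) are the lowest of the 5 for all 10 members in each class, and for Dnajb1 in podocytes that lowest value is 1.19.

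The members of the HSP70 machinery were most abundant in mesangial cells. Without TMM, the share of UMIs taken by the 10 members together was 2.97% and 2.88% in young and 2.61% and 4.02% in aged mesangial cells. It was 1.79% and 1.55% in young and 1.85% and 2.98% in aged endothelial cells, and 0.982% and 0.942% in young and 1.13% and 2.08% in aged podocytes. Parietal cells had 0.712% and 0.572% in young and 0.540% and 0.952% in aged libraries. The share was 0.314% to 0.529% in monocyte and dendritic cells, 0.414% to 0.534% in T and NK cells and 0.373% to 1.03% in B cells, ranges that overlap.

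By gene, the mean over libraries was highest in mesangial cells for 8 of the 10 members, in endothelial cells for Hspb1 and in podocytes for Hspe1. Hspa1a in mesangial cells ranged from 8437 to 9941 CPM (no TMM) and did not overlap the next class, endothelial cells, at 3933 to 6255 CPM. Podocytes (1975 to 5454 CPM) and smooth muscle and renin cells (2265 to 3336 CPM) followed and overlapped their neighbours, as did erythroid cells, present in 1 library only. The immune classes were lower, with B cells at 251 to 1746 CPM, macrophages of the aged libraries at 584 and 825 CPM, monocyte and dendritic cells at 153 to 441 CPM and T and NK cells at 41.1 to 602 CPM. Among the glomerular classes Dnajb1 had the same order, with 844 to 1452 CPM in mesangial cells, 406 to 596 CPM in endothelial cells and 224 to 635 CPM in podocytes, the latter 2 overlapping. Hsp90aa1 was at 3886 to 6864 CPM in mesangial cells, apart from all other classes, while its ranges in endothelial cells (2013 to 3461 CPM) and podocytes (1989 to 2616 CPM) overlapped.

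Hspb1 had another order, with 3136 to 8028 CPM in endothelial cells, 1942 to 4402 CPM in smooth muscle and renin cells and 1117 to 3343 CPM in mesangial cells, each overlapping the next. It was lowest in T and NK cells, with 0, 57.6 and 39.1 CPM in 3 libraries and 334 CPM in young replicate 2, and in monocyte and dendritic cells (14.4 to 118 CPM), levels at which free RNA from other cells was not told apart from expression. Hspe1 varied least in its order: podocytes (535 to 1357 CPM), mesangial cells (523 to 1449 CPM), macrophages (629 and 941 CPM) and T and NK cells (545 to 849 CPM) all overlapped. Of the members, Hspa8, Dnaja1, Hspb1 and Hspe1 share 34.9% to 60.6% of the 90-base words at their 3' ends with other annotated genes, mostly pseudogenes, and Hsp90aa1 and Hspd1 share 18.7% and 18.6%, so part of their reads may have been dropped as ambiguous in every library alike. Hspa1a and Hspa1b share none with other genes or with each other.

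Outside the glomerular classes 2 calls were made. Hspb1 in smooth muscle and renin cells was at 2527 and 2135 CPM in young and 3672 and 4996 CPM in aged libraries, with no overlap (log2 0.89, SE 0.20, adjusted p = 0.00353, edgeR), against 3.68% of 4047 genes called (1.63% higher, 2.05% lower). It was not called without young replicate 1 (adjusted p = 0.109), without young replicate 2 (0.122) or without aged replicate 2 (0.0533), each by edgeR. Summed endothelial markers in that class were at 9.80% and 7.61% of the endothelial class's level in young and at 2.38% and 3.79% in aged libraries, with at most 1 of 10 at 0. Mesangial markers stood at 23.3% and 17.3% in young and 25.8% and 30.0% in aged libraries, with 0 of 9 at 0, and the part of either was not tested. Hspa1a in T and NK cells had 20 and 63 UMIs in young and 5 and 11 UMIs in aged libraries, or 399 and 736 against 50.2 and 72.3 CPM (log2 -3.20, SE 0.39, adjusted p = 6.01e-06, edgeR), where 0.984% of 1626 genes were called (0.308% higher, 0.677% lower). With doublets kept the same value was -0.16 (adjusted p = 0.995, edgeR). Endothelial markers in that class stood at 0.705% and 3.80% of their endothelial level in young and 0.789% and 0.783% in aged libraries, and their part in the result was not tested.

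In monocyte and dendritic cells no member was called (edgeR, 1.79% of 5309 genes). Hspa1a (log2 -0.78, adjusted p = 0.246, edgeR) alone had an unadjusted p under 0.05, against 576 of the 5309 genes. In B cells none was called either, as for all 2934 genes (93 of which had an unadjusted p under 0.05 in edgeR, none of them a member). Aged replicate 1 had the lowest B cell level for all 10 members and aged replicate 2 the highest for 9. Hspa1a ranged from 287 CPM in aged replicate 1 to 2044 CPM in aged replicate 2. The B cell cluster also carried endothelial markers, and the part of other classes in the B cell values here and above was not tested.

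The dissociation response was followed with a list of 35 immediate early and stress genes, such as Fos, Jun, Egr1, Atf3 and Nfkbia. Its share of UMIs was 4.93% and 5.25% in young and 5.44% and 5.46% in aged podocytes, so the 2 aged libraries were alike in this list while their chaperone shares were 1.13% and 2.08%. In endothelial cells the list took 3.19% and 3.31% in young and 3.62% in each of the aged libraries. In mesangial cells it was lower in the aged libraries (3.26% and 3.38%) than in the young ones (3.69% and 4.04%), and in parietal cells too (2.10% and 2.54% against 3.40% and 3.48%). Its genes were called in both directions: 10 higher and 4 lower of 35 in podocytes, 8 higher and 0 lower in endothelial cells, 5 higher and 6 lower in mesangial cells and 5 higher and 10 lower of 34 in parietal cells. The medians were 0.15, 0.39, -0.05 and -0.15, against 0.00, -0.01, -0.01 and 0.01 over all genes.

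Single members of the list show the mixture. In podocytes Cebpd (log2 1.83), Cebpb (1.28) and Nfkbia (1.32), genes of cytokine signalling, were higher in aged libraries, while Klf4 (-1.17), a transcription factor, was lower. In endothelial cells Dusp1 (1.18), Cebpb (1.09), Klf6 (0.89) and Maff (0.87) were higher. In mesangial cells Errfi1 (1.71), a brake on growth factor receptors, and Cebpb (1.31) were higher and Egr1 (-1.29) and Klf4 (-1.09) lower. In parietal cells the immediate early genes Jun (-1.49), Egr1 (-1.46), Ier2 (-1.57) and Zfp36 (-1.64) were lower.

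Within each library, podocytes, endothelial and mesangial cells with more of the dissociation response also held more chaperone UMIs. Cells of each class and library were split into terciles by their dissociation share. In podocytes of young replicate 1 the 10 members took 0.336%, 1.06% and 1.30% of UMIs from the lowest to the highest tercile, and in young replicate 2 they took 0.450%, 1.06% and 1.16%. The aged libraries gave 0.405%, 0.986% and 1.66% in replicate 1 and 1.12%, 1.91% and 2.80% in replicate 2. Aged replicate 2 was thus the highest in every tercile, also where its median dissociation share was 0.485% against 0.443% to 1.09% in the other libraries. Depth went with the tercile too, since median UMIs per cell went from 3116 to 4916 in young replicate 1 and from 4686 to 8695.5 in aged replicate 2, and the part of depth was not tested.

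The same split gave 1.30% to 2.48% and 1.13% to 2.15% in young endothelial cells, 1.36% to 2.40% in aged replicate 1 and 2.33% to 3.80% in aged replicate 2. In mesangial cells the highest tercile reached 4.20% and 4.19% in young, 3.20% in aged replicate 1 and 4.85% in aged replicate 2. Parietal cells, with 13 to 30 cells a tercile, rose from 0.445% to 1.07% in young replicate 1 and from 0.741% to 1.12% in aged replicate 2. They did not rise from the middle to the highest tercile in young replicate 2 (0.452%, 0.821% and 0.605%) or in aged replicate 1 (0.399%, 0.576% and 0.576%). Dnajb1 in podocytes went from 36.3 to 331 CPM and from 79.8 to 311 CPM in young and from 72.8 to 797 CPM and from 162 to 1009 CPM in aged libraries. In its highest tercile the aged libraries were thus above the young ones, while in the lowest tercile aged replicate 1 was between them.

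**Figure D5:**
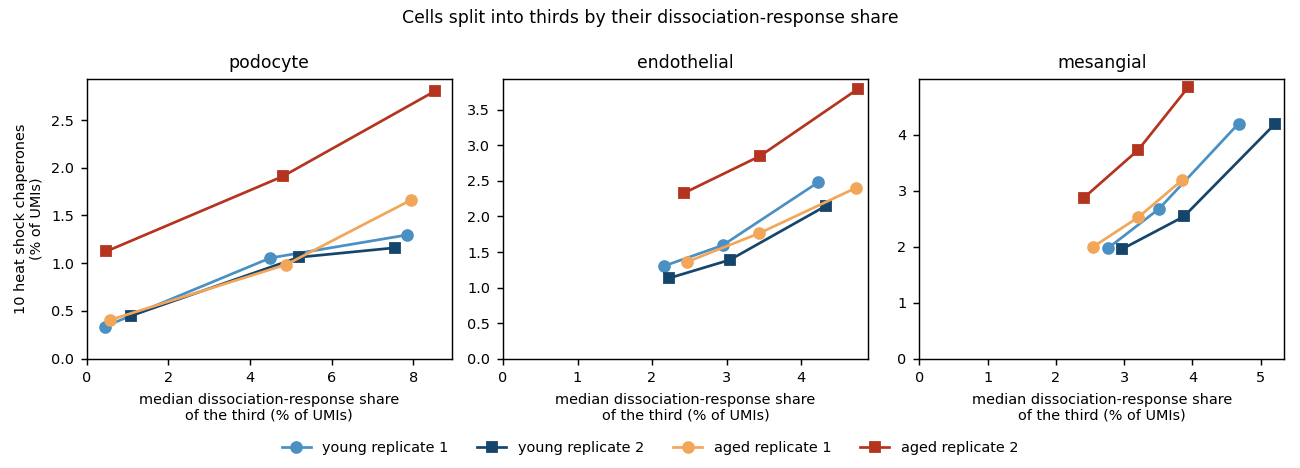
Share of UMIs of the 10 members against the median dissociation-response share of cells split into terciles, for podocytes, endothelial and mesangial cells, with 1 line per library. All 12 lines go up, and the line of aged replicate 2 (dark red) is above the others at a like dissociation share, starting at 1.12% in podocytes against 0.336% to 0.450% in the other libraries.

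A further selection kept the cells in the lower 50% of dissociation shares of their class, over all libraries together. It kept unequal parts of the libraries. Of mesangial cells, 175 of 412 and 84 of 271 were kept in young and 397 of 694 and 310 of 554 in aged libraries. Of endothelial cells, 1531 of 2397 and 825 of 1381 were kept in young and 2734 of 5974 and 1918 of 4264 in aged libraries. With these cells, 3 members were called in podocytes (Dnajb1 with log2 1.13, Dnaja1 and Hsph1), 5 in endothelial cells and 6 in mesangial cells. Over all genes, 238 of 9338, 550 of 11819 and 1032 of 10111 were called there. Parietal cells were too few for this split. The median log2 fold change of the members was then 0.94 in podocytes, 0.71 in endothelial cells and 0.66 in mesangial cells.

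Among single cells the members were unevenly spread. At an equal depth of 1000 UMIs per cell, the mean of Dnajb1 in podocytes was 0.204 and 0.223 UMIs in young and 0.425 and 0.574 UMIs in aged libraries, from 1747, 573, 978 and 653 cells, with 2, 22, 2 and 2 shallower cells left out. The top 10% of podocytes held 72.0% and 68.8% of its UMIs in young and 67.3% and 53.9% in aged libraries. For Hspa1a in podocytes the top 10% held 48.4% and 42.9% in young and 40.9% and 27.6% in aged libraries. Aged replicate 2 also had the highest mean (5.18 UMIs against 1.81 to 2.35), and this share falls as a mean gets larger. The Fano factor, the variance over the mean, of Hspa1a in podocytes was 4.62 and 3.67 in young and 4.38 and 3.38 in aged libraries, where counting noise alone would give 1. That of Dnajb1 was 1.37 and 1.47 in young and 2.22 and 1.94 in aged podocytes. The Fano factor can rise with the mean, and the mean of Dnajb1 was also higher in the aged libraries. The part of the mean was not tested, so these values do not show that Dnajb1 was more uneven among aged podocytes.

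The wider chaperone network was read from 102 further genes in lists by role. Of those tested, 8 of 94 were higher in aged podocytes, 8 of 95 in endothelial cells, 12 of 97 in mesangial cells (with 3 lower) and 2 of 78 in parietal cells, against 3.85%, 4.03%, 7.11% and 2.6% of all genes called higher. Of the HSP90 co-chaperones, 4 of 14 were higher in podocytes, 4 of 14 in endothelial cells, 3 of 14 (with 1 lower) in mesangial cells and 0 of 10 in parietal cells. Ahsa2, a gene related to the HSP90 ATPase activator, was at 20.6 and 19.0 CPM in young and 40.1 and 123 CPM in aged podocytes (log2 2.02, SE 0.29, adjusted p = 1.77e-05, edgeR). Fkbp5, a co-chaperone of steroid receptors that glucocorticoids induce, was at 2.85 and 2.57 CPM in young and 38.4 and 12.3 CPM in aged endothelial cells (log2 3.21, SE 0.45, adjusted p = 0.000122, edgeR). It was higher in aged replicate 1 than in aged replicate 2, opposite to the members.

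Stip1, which links HSP70 to HSP90, was called higher in podocytes (log2 0.70), endothelial (1.42) and mesangial cells (1.11). In endothelial cells it measured 81.3 and 63.5 CPM in young and 110.0 and 279 CPM in aged libraries, with the same high library as the members. The exchange factor Hspa4l (log2 1.47) was called in endothelial cells and Dnaja4, a further J-domain protein, in podocytes (1.01). In the mitochondrial list, Hspa9, the HSP70 that imports proteins there, was called in mesangial cells at 89.3 and 91.3 CPM in young against 154 and 145 CPM in aged libraries (log2 0.73, SE 0.13), with the aged libraries close to each other. The list of cytosolic folding chamber and prefoldin genes gave 4 calls of 14 in mesangial cells, among them the prefoldin gene Pfdn2 (0.75) and the chamber gene Cct8 (0.63). Of the heat shock factors, none of the 3 tested in podocytes was called; Hsf1 was at 19.4 and 16.3 CPM in young and 21.5 and 21.5 CPM in aged podocytes.

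Chaperones of the endoplasmic reticulum gave few calls. Manf, a secreted factor of the unfolded protein response, was higher in all 4 glomerular classes, with 191 and 169.7 CPM in young and 524 and 719.7 CPM in aged parietal cells (log2 1.80, SE 0.22, adjusted p = 0.000124, edgeR). Hspa5, the HSP70 of the reticulum, was called in parietal cells alone among the 4 (log2 1.14, SE 0.20). Cirbp, an RNA-binding protein that cold raises and heat lowers, was called lower in podocytes (-1.27), endothelial (-1.33), mesangial (-1.49) and smooth muscle and renin cells (-1.40). In endothelial cells it measured 44.9 and 42.2 CPM in young and 22.3 and 12.5 CPM in aged libraries, so it was lowest in the library with the highest chaperone levels. Rbm3, the other cold-inducible gene of the list, was at 257 and 244 CPM in young and 326 and 236 CPM in aged endothelial cells and was not called in any class.

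Genes with the most similar pattern were sought over the 16 sums of 4 glomerular classes and 4 libraries, among 6531 genes with a mean of at least 20 CPM, as a description. For Hspa1a they included Emilin1, Cyth3, Apbb2 and Cdr2l (Pearson r 0.92 to 0.93), while the member Hspa1b reached 0.99. For Hspd1 they were Ubb (0.90), a polyubiquitin gene, Chordc1 (0.87), Hsp90ab1 (0.84), Stip1 (0.84) and Dnaja4 (0.82). For Hsp90aa1 they were Hsp90ab1 (0.91), Chchd2, Fbxo33, Gm17971 and Col8a1 (0.89 to 0.90). The 16 sums share libraries and classes and are not independent, and the high level of mesangial cells enters each of these values. Of the other members, Hspb1 was least like Hsp90aa1 (0.44) and Hspd1 (0.55), and Hspe1 was least like Hspa1a (0.57).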

How the data were processed

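Single-cell libraries were made with the 10x 3' v3.1 kit, per the labels' protocols. The deposited values are UMI counts per gene and barcode, 1 matrix per library, made by the authors with Cell Ranger on GRCm38. The submitters' processing notes and the file headers name version 6.0.1 and the labels' protocols 3.1.0, and the notes also name Partek. Ages, sexes and the number of mice per library are not given in the sources used here.

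From these counts, barcodes with at least 500 genes and at most 20% mitochondrial UMIs were kept, and the barcodes with the highest Scrublet scores (0.8% per 1000 barcodes) were removed as doublets, which left 28000 cells. They were clustered with scanpy 1.11.5 and leidenalg 0.10.2 (2000 variable genes less those of the chaperone and dissociation lists, 30 components, 15 neighbours, resolution 1), giving 27 clusters. Clusters were named from marker lists, and clusters or cells with markers of unrelated classes were set aside. Counts were summed per class and library and tested with edgeR 4.0.16 (quasi-likelihood test, TMM, filterByExpr, R 4.3.3), aged against young, in 8 classes with at least 20 cells in every library, with Benjamini-Hochberg adjustment over all genes tested. The age by class test used 16 sums with the library as a block. An exact permutation test of 2 against 2 libraries cannot go below p = 0.333 and was not used. The scripts were tested on simulated data.

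Replicate numbers were not taken to pair the libraries, since the correlation of same-numbered deviations was between -0.110 and 0.105 over the classes. Alternatives covered DESeq2 1.42.0, scaling, filters, cell selection and naming, the replicate block and each library left out. Using 1 cluster per class, and crossed numbers in 1 class, were added after seeing the data. The members and gene lists were chosen with earlier results of these data known. All 10 members are named, and of other lists up to 4 genes with the smallest p in a class; further chaperone genes were named after their values were seen. Likeness was computed for Hspa1a, Hsp90aa1 and Hspd1. Of the 5 genes most like Hspa1a, 1 is not reported here.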

Additional observations from a re-analysis of the deposited data

Results flagged for a closer look

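The age difference of 5 members differed between glomerular classes by a test of that difference (edgeR, library as a block, adjusted over all genes), in 11 of the 60 member and class pairs. Over all genes, between 1.15% (endothelial against parietal) and 7.39% (podocyte against mesangial) of 14109 genes were called in a pairing. Dnajb1 differed from its value in podocytes by -1.45 (endothelial), -1.60 (mesangial) and -2.05 (parietal epithelial) on the log2 scale. These 3 were called in 12, 12 and 13 of 13 alternatives.

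Against podocytes, mesangial cells also differed in Hspb1 by -0.94, in Hspa1a by -0.78 and in Hsph1 by -0.55, called in 11, 8 and 9 of the 13 alternatives. Parietal cells differed from podocytes in Hspa1a by -1.61 and in Hspa1b by -1.45, called in 11 and 9. Parietal cells differed from endothelial cells in Hspa1a by -1.10 and in Hspa1b by -1.14, each called in 7. Mesangial cells differed from endothelial cells in Hspb1 by -0.77, called in 9. Parietal sums held 30 to 168 UMIs of Hspa1b per library.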

How the results depend on the processing

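With each library left out in turn, the number of members called ranged from 1 to 9 in podocytes, 0 to 5 in the endothelium, 0 to 8 in mesangial cells and 0 to 5 in parietal cells, and from 2 to 5 over the other 4 classes. The further chaperones ranged from 13 to 71 (33 with all libraries), the dissociation list from 21 to 50 (48) and the class differences from 6 to 13 (11). Calls over all genes also moved with the library left out. In mesangial cells they fell without either young library and rose without either aged one. In podocytes they rose without either young library and fell without either aged one. These ranges therefore do not describe the members alone. DESeq2 gave 1 member for podocytes (Dnajb1), 2 for the endothelium (Hspa8 and Hspa1b) and 1 for mesangial cells (Dnaja1). Neither Hspd1 nor Hspe1 was among them. Over all genes DESeq2 called 267 of 10863, 503 of 13125 and 1057 of 11796 in these classes. With mixed cells kept the counts were 0 for podocytes, 0 for the endothelium, 0 for mesangial and 1 for parietal cells, 1 over the other classes, 14 further chaperones and 1 class difference. With cells named one by one they were 1, 3, 0 and 1, 1 over the other classes, 15 and 3. With no filter on low counts they were 0 in endothelial, 6 in mesangial and 4 in parietal cells. Over all genes, mixed cells kept gave 41 of 11090 calls in podocytes and 517 of 13278 in the endothelium. In mesangial and parietal cells that gave 657 of 11882 and 428 of 5739. Naming cells one by one gave 298 of 10954 and 721 of 12757 in podocytes and the endothelium. In mesangial and parietal cells it gave 527 of 10385 and 129 of 4103. No filter gave 0 of 23313 in endothelial, 2321 of 21154 in mesangial and 397 of 15783 in parietal cells. In endothelial cells 2 members were called with the lists kept among clustering genes, against 674 of 13034 genes. At a maximum of 10% mitochondrial UMIs 2 were called there, against 746 of 13026 genes. In mesangial cells this maximum gave 1 member, doublets kept 1, no TMM factor 0 and 1 cluster 4. Over all genes these settings called 1577 of 11807, 1270 of 11860, 1833 of 11796 and 281 of 8982. Doublets kept gave 1 member over the other classes. The cells of low dissociation share gave 3 in podocytes and 6 in mesangial cells. That selection was not run for parietal cells, for the class differences or for the summed counts of the lists. The causes were not tested.

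The replicate block gave 9 members for podocytes, 7 for the endothelium, 4 for mesangial and 2 for parietal cells. It gave 4 over the other classes (1 in smooth muscle and renin cells, also with crossed numbers). It also gave 53 further chaperones, 69 genes of the dissociation list and 14 class differences. Over all genes the block called 859 of 10863 in podocytes and 1305 of 13125 in the endothelium, against 630 and 794 without it. In mesangial and parietal cells it called 1968 of 11796 and 373 of 4850, against 1602 and 254 without it.

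Of the members' fold changes under alternatives, 516 kept direction and call, 100 lost and 49 gained a call, and 18 changed sign. Without aged replicate 2 the sign changed for Hsp90aa1 in mesangial cells (-0.077 there and 0.65 without aged replicate 1) and podocytes (-0.11 and 0.33), Hspb1 in mesangial (-0.64 and 0.85) and parietal cells (-0.26 and 0.99), Hspe1 in parietal cells (-0.10 and 0.70) and Hsph1 in mesangial (-0.061 and 0.91) and parietal cells (-0.036 and 1.25). Dnajb1 in endothelial cells was 0.12 without young replicate 1, 0.16 without aged replicate 1, -0.32 without aged replicate 2 and 0.20 in 1 cluster, and in mesangial cells 0.12 without aged replicate 1, -0.52 without aged replicate 2 and 0.13 in cells of low dissociation share. Hspa1a was -0.017 in mesangial cells with no TMM factor and 0.014 in parietal cells named one by one. Hspa1b in parietal cells was 0.041 without aged replicate 1, -1.62 without aged replicate 2, 0.15 with doublets kept and 0.20 with cells named one by one. Hspb1 in mesangial cells was -0.37 in 1 cluster. With 2 libraries a group, a group left with 1 library is assumed to vary like the other.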
